A study of Mus musculus with 24 samples.

Results

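Gdf15 and 9 genes of the integrated stress response are described here in stromal cells of mouse white fat. The 9 are Atf4, Atf5, Ddit3, Trib3, Sesn2, Chac1, Slc7a11, Asns and Psat1. The 10 genes were taken by symbol out of 27179 genes in the deposited table, and each was found as a row of its own. They were chosen by the levels of Gdf15, which differ between the groups, so those levels are a description and carry no test, and the other 9 genes were tested.

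Bulk RNA was sequenced from PDGFRb-positive cells that had been sorted by flow cytometry from the fat of C57BL/6 mice. There were 24 libraries in 8 groups of 3. Gonadal fat gave male FIP, male APC, female FIP and female APC cells, and inguinal fat gave male DPP4_pos, male DPP4_neg, female DPP4_pos and female DPP4_neg cells. In the field, FIP stands for fibro-inflammatory progenitor and APC for adipocyte precursor cell, and DPP4 is a surface peptidase that marks an early progenitor of fat. All groups share the strain and the selection on PDGFRb, and the labels name no treatment. No source used here gives the age of the mice or the sort gates, or says whether the 3 libraries of a group came from separate animals, so a p-value measures only the spread between these samples, which may be technical.

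The integrated stress response is the programme that cells start when kinases phosphorylate the translation factor eIF2alpha. General protein synthesis slows, while the mRNA of ATF4 is translated more, and ATF4 then switches on genes for amino acid synthesis and import, tRNA charging and redox balance together with partners such as CHOP, the protein of Ddit3. GDF15 is a secreted hormone of the TGF-beta superfamily that ATF4 and CHOP are known to switch on, and it lowers food intake through the receptor GFRAL in the hindbrain. Since ATF4 is controlled largely at translation, its mRNA is not a measure of its protein.

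ATF4 binds, with a C/EBP partner, to a C/EBP-ATF response element, whose core was searched for as TGATGNAA on both strands in the 250 bases before each start of the RefSeq promoter table (GRCm38.p6). All 10 genes matched the table, with 13 promoters. The core was found before 3 of the 10 genes, Chac1, Slc7a11 and Asns, and before 3.91% of the 27025 genes of the table (3.45% of its 32851 promoters). These stretches are shown because they hold the element through which ATF4 is known to act. Each is written 5′ to 3′ on the gene's strand, with the core in capitals, which reads TTGCATCA where it lies on the other strand.
Chac1, chr2:119351027-119351078, plus strand, core starting 193 bases before the start: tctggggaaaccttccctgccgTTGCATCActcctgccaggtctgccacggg
Slc7a11, chr3:50443631-50443701, minus strand, cores starting 66 and 47 bases before the start: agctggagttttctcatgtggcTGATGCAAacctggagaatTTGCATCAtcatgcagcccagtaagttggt
Asns, chr6:7693210-7693254, minus strand, core starting 23 bases before the start: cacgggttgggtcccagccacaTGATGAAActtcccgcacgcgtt
Slc7a11 thus carries a pair of cores that face each other, and Chac1 and Asns a core each. The Slc7a11 stretch lies inside the interval of the gene (chr3:50364936-50499087), before an internal start of the promoter table. The cAMP response element TGACGTCA was found before none of the 10 genes and before 1.77% of all genes (1.55% of all promoters). The antioxidant response core TGACNNNGC was found before Asns and Sesn2 and before 11.5% of all genes (10.2% of all promoters). A match is a run of letters and not a shown binding site, and no match says only that the letters are not in this window.

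Recovered reads ran from 9152470 to 18221692 per library, and libraries of a group correlated at 0.982 to 0.992 on the log2 scale. Xist was at 5.80 or less in the male libraries and at 11954 to 19203 in the female ones, as the labels have it. Ddx3y, also used as a check of sex, had 2035 to 3213 in the male libraries. It was far lower but not absent in the female ones, at 23.1 to 124, with the highest value in female APC. Dpp4 had 14883 to 16085 normalized counts in male DPP4_pos cells, against 235 to 258 in male DPP4_neg cells. In females it had 17356 to 20848 in DPP4_pos cells, against 4213, 2124 and 1150 in DPP4_neg cells, so the female DPP4_neg libraries held more of the gated mRNA than the male ones and differed among themselves. The summed level of 9 epithelial markers was 4235 to 10286 in the female DPP4_neg libraries and at most 402 in every other library. Summed macrophage markers were at 532 to 866 in male DPP4_neg cells and 725 to 1519 in female DPP4_neg cells. Progenitor markers were high throughout, with sums of 217860 to 642260. In bulk RNA, fewer cells that make a transcript and less transcript per cell cannot be told apart.

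Gdf15 (chr8:70629393-70632470, minus strand, GRCm38) had 40.7, 42.7 and 47.4 normalized counts in the 3 male DPP4_pos libraries, against 713, 736 and 693 in male DPP4_neg cells, the highest of all groups. In females, DPP4_pos cells had 9.0, 10.7 and 9.91, against 35.0, 28.6 and 68.5 in DPP4_neg cells. The female DPP4_pos cells were thus the lowest of all groups, at 9 to 12 reads a library, and DPP4_pos lay below DPP4_neg in both sexes with no overlap. The ratio of the means was 16.4-fold in males and 4.46-fold in females.

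In gonadal fat the same gene had 61.4, 66.0 and 58.5 normalized counts in male FIP, against 134, 166 and 166 in male APC. Female FIP had 20.8, 17.9 and 23.9, against 71.3, 34.5 and 41.5 in female APC. FIP thus lay below APC in both sexes without overlap, by 2.51-fold in males and 2.35-fold in females. The female APC libraries spread most, their mean being 49.1 ± 19.5 (SD, n = 3).

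Male cells had more Gdf15 than female cells in all 4 populations, and the 3 male libraries lay above the 3 female ones each time. The means were 714 in male and 44.0 in female DPP4_neg cells, a 16.2-fold difference, and 43.6 in male and 9.88 in female DPP4_pos cells, 4.41-fold. Among gonadal cells the means were 155 in male and 49.1 in female APC, 3.17-fold, and 62.0 in male and 20.9 in female FIP, 2.97-fold. Ordered by mean, the groups ran male DPP4_neg, male APC, male FIP, female APC, female DPP4_neg, male DPP4_pos, female FIP and female DPP4_pos, over a range of 72.3-fold. The 4 groups from male FIP to male DPP4_pos overlapped with their neighbours in that order, and under quantile normalization male DPP4_pos cells (52.9) moved above female APC (47.8) and female DPP4_neg cells (37.7).

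**Figure D1:**
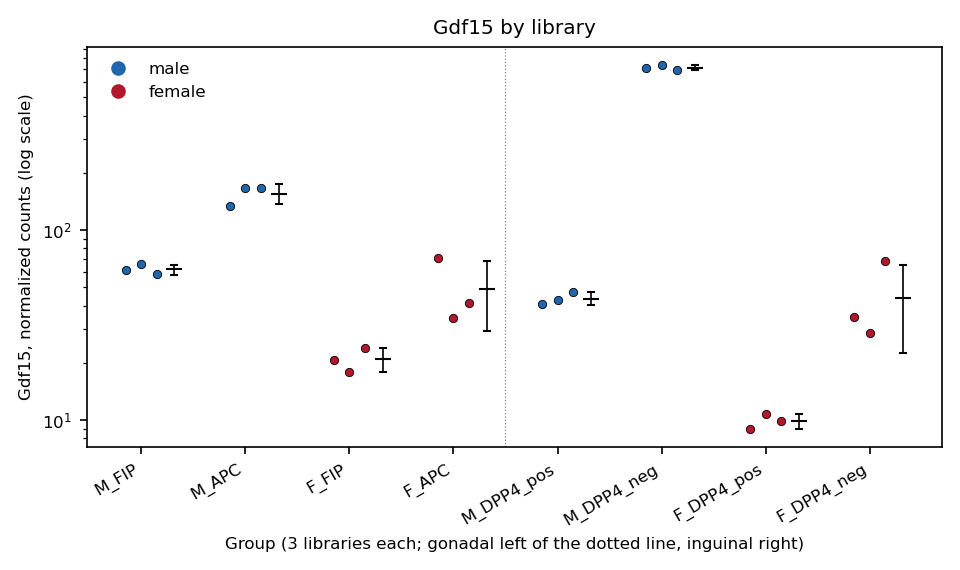
Gdf15 in each library (points) on a log axis of normalized counts, with the group mean and SD as bars (n = 3), for 4 gonadal groups on the left and 4 inguinal groups on the right. Male DPP4_neg cells, at 693 to 736, stand above every other library, of which the highest is a male APC library at 166.

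Atf4 (chr15:80255184-80257545) and Atf5 encode basic leucine zipper factors whose mRNAs are both translated more under stress. Atf4 had 3595, 3714 and 4013 normalized counts in male DPP4_pos cells, against 5878, 5671 and 5855 in male DPP4_neg cells. The female DPP4_pos libraries had 2610, 2903 and 2655, against 3461, 3643 and 3265 in female DPP4_neg cells. Atf4 was thus lower in DPP4_pos cells of both sexes, with a log2 fold change of -0.62 ± 0.06 (SE; limma, adjusted p = 4.47e-09) in males and -0.34 ± 0.06 (limma, adjusted p = 4.61e-05) in females. The larger drop in males passed the test of the difference at -0.28 ± 0.09 (limma, adjusted p = 0.0181), but not without female DPP4_pos replicate 2 (-0.23, adjusted p = 0.0582), without male DPP4_pos replicate 1 (-0.24, adjusted p = 0.0579), under quantile normalization (adjusted p = 0.0541) or with only these 4 groups in the fit (adjusted p = 0.0773).

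In gonadal fat Atf4 had 3110, 3260 and 3108 normalized counts in male FIP, against 3730, 3675 and 3599 in male APC. Female FIP had 3579, 3598 and 3694, against 4645, 4155 and 4300 in female APC. FIP lay below APC without overlap in both sexes, at -0.22 ± 0.06 (limma, adjusted p = 0.00707) in males and -0.27 ± 0.06 (limma, adjusted p = 0.00108) in females. The sexes differed in opposite directions in the 2 fats. Atf4 was higher in male than in female DPP4_neg cells (0.75 ± 0.06; limma, adjusted p = 1.97e-10) and DPP4_pos cells (0.47 ± 0.06; limma, adjusted p = 5.96e-07). It was lower in male than in female APC (-0.25 ± 0.06; limma, adjusted p = 0.00174) and FIP (-0.20 ± 0.06; limma, adjusted p = 0.0131), and under quantile normalization these gonadal values were -0.08 (adjusted p = 0.247) in APC and -0.12 (adjusted p = 0.0951) in FIP.

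Atf5 had 2034, 1935 and 2119 normalized counts in male DPP4_pos cells, against 3446, 3073 and 2994 in male DPP4_neg cells. In females it had 2389, 2202 and 2099 in DPP4_pos cells, against 2150, 1918 and 1778 in DPP4_neg cells. It fell in male DPP4_pos cells (-0.64 ± 0.09; limma, adjusted p = 1.66e-06), while the female libraries overlapped (0.20 ± 0.09; limma, adjusted p = 0.0755). The difference between the sexes was -0.84 ± 0.13 (limma, adjusted p = 2.01e-05). The female value passed without female DPP4_neg replicate 1 (0.27, adjusted p = 0.0242), with factors from the trimmed mean of M values (TMM; adjusted p = 0.0481) and with a replicate block (adjusted p = 0.0400).

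Male FIP had 2410, 2351 and 2268 normalized counts of Atf5, against 3039, 2889 and 2924 in male APC. Female FIP had 2518, 2463 and 2433, against 2889, 2766 and 2078 in female APC. Male FIP lay below male APC (-0.33 ± 0.09; limma, adjusted p = 0.00508), and the female groups overlapped (-0.05 ± 0.09; limma, adjusted p = 0.727). Between the sexes, Atf5 was higher in male than in female DPP4_neg cells (0.70 ± 0.09; limma, adjusted p = 3.97e-07). The other sex differences did not pass, at 0.21 ± 0.09 in APC (limma, adjusted p = 0.0644), -0.08 in FIP and -0.14 in DPP4_pos cells. The APC value passed without female APC replicate 1 (0.30, adjusted p = 0.0147) or replicate 2 (0.27, adjusted p = 0.0383), with a replicate block (adjusted p = 0.0326) and under quantile normalization (0.34, adjusted p = 0.00131), and the DPP4_pos value was -0.30 under quantile normalization (adjusted p = 0.00352). The exons of Atf5 overlap Nup62 and Il4i1 on the other strand by 82 bases, whose reads cannot be told apart without a strand setting.

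Ddit3 (chr10:127290793-127296291) encodes CHOP, a factor that ATF4 switches on and that takes part in cell death under lasting stress. It had 288, 292 and 345 normalized counts in male FIP, against 392, 491 and 362 in male APC. Female FIP had 325, 328 and 313, against 295, 227 and 256 in female APC. Ddit3 was lower in male FIP (-0.42 ± 0.12; limma, adjusted p = 0.00635) and higher in female FIP (0.32 ± 0.12; limma, adjusted p = 0.0349). The difference between the sexes was -0.74 ± 0.17 (limma, adjusted p = 0.00446) and kept its call whichever library was left out. The male call was lost without male APC replicate 2 (-0.29, adjusted p = 0.0703). The female call was lost when female APC replicate 2 or 3 or any of the 3 female FIP libraries was left out (0.23 to 0.34, adjusted p = 0.0563 to 0.182), and also under quantile normalization (adjusted p = 0.0848), without the filter on low values (adjusted p = 0.0521) and by DESeq2 (adjusted p = 0.0522).

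In inguinal fat Ddit3 had 209, 221 and 192 normalized counts in male DPP4_pos cells, against 323, 290 and 287 in male DPP4_neg cells. Female DPP4_pos cells had 197, 200 and 199, against 203, 221 and 278 in female DPP4_neg cells. It fell in male DPP4_pos cells (-0.53 ± 0.12; limma, adjusted p = 0.000558), and the female difference did not pass (-0.22 ± 0.12; limma, adjusted p = 0.128), though it did without female DPP4_neg replicate 1 (-0.32, adjusted p = 0.0428). Male cells had more Ddit3 than female cells in APC (0.67 ± 0.12; limma, adjusted p = 4.92e-05) and in DPP4_neg (0.37 ± 0.12; limma, adjusted p = 0.0101). The DPP4_neg call was lost without female DPP4_neg replicate 1 (0.27, adjusted p = 0.0742) and with only the groups compared in the fit (adjusted p = 0.0539). The sex difference of Ddit3 was -0.07 ± 0.12 in FIP and 0.06 ± 0.12 in DPP4_pos cells, and neither value passed. Its exons overlap Mars on the other strand by 68 bases and Gm4189 by 13.

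Trib3 (chr2:152337425-152344060), a pseudokinase that ATF4 and CHOP switch on and that restrains them in turn, was low, at 14 to 63 reads a library. Male DPP4_pos cells had 18.1, 19.6 and 27.5 normalized counts, against 39.6, 54.1 and 30.8 in male DPP4_neg cells. In female DPP4_pos cells it had 14.0, 38.0 and 30.6, against 23.0, 24.8 and 14.9 in female DPP4_neg cells. Trib3 fell in male DPP4_pos cells (-0.89 ± 0.30; limma, adjusted p = 0.0157), and the female libraries overlapped (0.30 ± 0.30; limma, adjusted p = 0.422). The male call was lost without male DPP4_neg replicate 2 (adjusted p = 0.0927), male DPP4_pos replicate 1 (adjusted p = 0.0642) or male DPP4_pos replicate 2 (adjusted p = 0.0501), and under quantile normalization (adjusted p = 0.104). The difference between the sexes, -1.19 ± 0.42 (limma, adjusted p = 0.0362), was lost when female DPP4_neg replicate 3, female DPP4_pos replicate 2 or 3, male DPP4_neg replicate 2 or male DPP4_pos replicate 1 or 2 was left out (adjusted p = 0.0703 to 0.118). The female value passed without female DPP4_pos replicate 1 (0.71, adjusted p = 0.0435) and under quantile normalization (0.89, adjusted p = 0.0209).

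Gonadal FIP and APC did not differ in Trib3 past the threshold. Male FIP had 37.8, 56.2 and 46.3 normalized counts, against 40.8, 55.6 and 38.5 in male APC, and female FIP had 34.1, 27.3 and 42.8, against 18.8, 27.4 and 23.5 in female APC. Male APC had more Trib3 than female APC (0.92 ± 0.30; limma, adjusted p = 0.0144), a call that was lost without female APC replicate 1 (0.78, adjusted p = 0.0664) or male APC replicate 2 (0.76, adjusted p = 0.0744). Male DPP4_neg cells had more than female ones (0.95 ± 0.30; limma, adjusted p = 0.00889), a call that was lost without female DPP4_neg replicate 3 (0.74, adjusted p = 0.0614) or male DPP4_neg replicate 2 (0.75, adjusted p = 0.0591).

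Sesn2 (chr4:132492804-132510456) encodes sestrin 2, a leucine sensor that restrains the growth kinase mTORC1 and that ATF4, p53 and NRF2 are known to switch on. Male DPP4_pos cells had 157, 165 and 186 normalized counts, against 338, 478 and 488 in male DPP4_neg cells. Among females, DPP4_pos cells had 129, 114 and 121, against 162, 164 and 155 in female DPP4_neg cells. The male DPP4_neg libraries stood above all others, as they did for Gdf15, though replicate 1 was lower than the other two. Sesn2 fell in male DPP4_pos cells (-1.34 ± 0.13; limma, adjusted p = 5.03e-09) and in female ones (-0.40 ± 0.13; limma, adjusted p = 0.0146), and the drop was larger in males by 0.94 ± 0.19 on the log2 scale (limma, adjusted p = 0.000495; male minus female -0.94). The female call was lost without female DPP4_pos replicate 2 (-0.36, adjusted p = 0.0554) and under quantile normalization (-0.25, adjusted p = 0.109).

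In gonadal fat Sesn2 had 149, 136 and 148 normalized counts in male FIP, against 144, 111 and 133 in male APC. Female FIP had 124, 96.4 and 108, against 132, 106 and 130 in female APC. The populations overlapped in both sexes, at 0.16 ± 0.13 in males and -0.16 ± 0.13 in females. Male cells had more Sesn2 than female cells in DPP4_neg (1.41 ± 0.13; limma, adjusted p = 2.31e-09), DPP4_pos (0.48 ± 0.13; limma, adjusted p = 0.00412) and FIP (0.40 ± 0.13; limma, adjusted p = 0.0194). The FIP call was lost without female FIP replicate 2 (0.32, adjusted p = 0.110), male FIP replicate 1 (0.38, adjusted p = 0.0603) or male FIP replicate 3 (0.39, adjusted p = 0.0574). APC of the 2 sexes did not differ past the threshold (0.08 ± 0.13).

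Chac1 (chr2:119351242-119354326) encodes an enzyme that breaks down glutathione. It was near the limit of detection, with 0 to 15 reads a library, and reached the filter value of 10 in 4 libraries of 3 groups. These were male DPP4_neg replicates 1 and 2, female APC replicate 1 and female DPP4_neg replicate 2. The calls of Chac1 against these groups thus rest on a gene admitted by the groups where it was high. Male FIP had 3.78, 2.68 and 2.44 normalized counts, against 3.22, 0 and 1.13 in male APC. Female FIP had 2.49, 3.41 and 1.99, against 12.9, 4.76 and 9.68 in female APC. Chac1 was lower in male than in female APC, with 3, 0 and 1 reads in males against 13, 4 and 7 in females (-2.19 ± 0.48; limma, adjusted p = 0.000579). It was lower in female FIP than in female APC (-1.40 ± 0.48; limma, adjusted p = 0.0221), a call that was lost without female APC replicate 1 or 3 or female FIP replicate 1 or 3 (-1.13 to -1.38, adjusted p = 0.0545 to 0.106) and under quantile normalization (adjusted p = 0.0854). The difference between the sexes in FIP against APC was 2.32 ± 0.68 (limma, adjusted p = 0.0268), and it was lost without female APC replicate 1 or 3, female FIP replicate 1 or 3, male APC replicate 2 or male FIP replicate 1 (adjusted p = 0.0543 to 0.0857), under quantile normalization (adjusted p = 0.0762) and by edgeR (adjusted p = 0.0750). The male value of FIP against APC did not pass (0.92 ± 0.48; limma, adjusted p = 0.143), though it did without male APC replicate 1 (1.43, adjusted p = 0.0285).

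Chac1 was low in the inguinal cells too. Male DPP4_pos cells had 9.04, 5.77 and 8.81 normalized counts, against 11.2, 15.3 and 8.63 in male DPP4_neg cells. The female DPP4_pos libraries had 6.00, 2.93 and 1.65, against 6.36, 10.1 and 4.13 in female DPP4_neg cells. No difference between these 4 groups passed, though that of male with female DPP4_pos cells (1.06 ± 0.48; limma, adjusted p = 0.0657) did without female DPP4_pos replicate 1 (1.44, adjusted p = 0.0253), and that of male with female DPP4_neg cells (0.73 ± 0.48) did under quantile normalization (1.38, adjusted p = 0.0222).

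Slc7a11 (chr3:50364936-50499087) encodes the cystine importer xCT, which supplies cysteine for glutathione. It was also low, at 5 to 53 reads a library. Male DPP4_pos cells had 28.3, 42.7 and 41.9 normalized counts, against 27.4, 36.8 and 41.9 in male DPP4_neg cells. Female DPP4_pos cells had 10.003, 9.75 and 26.4, against 29.4, 17.0 and 43.8 in female DPP4_neg cells. The 2 male populations overlapped (0.08 ± 0.41), while the female value just missed the threshold (-0.97 ± 0.41; limma, adjusted p = 0.0539). The female value passed without female DPP4_pos replicate 3 (-1.42, adjusted p = 0.00879) or female DPP4_neg replicate 2 (-1.32, adjusted p = 0.0192) and with a replicate block (adjusted p = 0.0358). Slc7a11 was higher in male than in female DPP4_pos cells (1.36 ± 0.41; limma, adjusted p = 0.0077).

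Among gonadal cells Slc7a11 had 4.72, 10.7 and 9.75 normalized counts in male FIP, against 20.4, 5.80 and 20.4 in male APC. Female FIP had 19.9, 22.2 and 16.9, against 25.7, 19.0 and 30.4 in female APC. FIP and APC overlapped in both sexes. The male value was -0.70 ± 0.41 (limma, adjusted p = 0.196), and without male APC replicate 2, the lowest of its group, it was -1.25 (adjusted p = 0.0171). Slc7a11 was lower in male than in female FIP (-1.20 ± 0.41; limma, adjusted p = 0.0246), a call that was lost without female FIP replicate 1 (-1.18, adjusted p = 0.0592), female FIP replicate 2 (-1.11, adjusted p = 0.0776) or male FIP replicate 1 (-0.87, adjusted p = 0.144). The transcript shares stretches of 372 to 585 bases with tubulin genes and pseudogenes at 91.6% to 94.5% identity, so part of its reads could be split between them.

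Asns (chr6:7675165-7693209) encodes asparagine synthetase, a classical target of ATF4. Male DPP4_pos cells had 522, 527 and 524 normalized counts, against 910, 803 and 859 in male DPP4_neg cells. Female DPP4_pos cells had 390, 382 and 312, against 532, 604 and 491 in female DPP4_neg cells. In gonadal fat, male FIP had 230, 229 and 221, against 317, 323 and 318 in male APC, and female FIP had 346, 322 and 293, against 439, 422 and 380 in female APC. Asns was lower in FIP than in APC and lower in DPP4_pos than in DPP4_neg cells in both sexes, with no overlap in any of the 4 comparisons. The log2 fold changes were -0.71 ± 0.09 (limma, adjusted p = 2.93e-07) for male and -0.59 ± 0.09 (limma, adjusted p = 5.63e-06) for female DPP4_pos cells. In FIP they were -0.49 ± 0.09 (limma, adjusted p = 8.55e-05) for males and -0.37 ± 0.09 (limma, adjusted p = 0.00169) for females.

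The sex difference of Asns turned with the fat, as that of Atf4 did. Male cells had more in DPP4_neg (0.66 ± 0.09; limma, adjusted p = 7.92e-07) and DPP4_pos (0.54 ± 0.09; limma, adjusted p = 1.6e-05). They had less in APC (-0.37 ± 0.09; limma, adjusted p = 0.00148) and FIP (-0.49 ± 0.09; limma, adjusted p = 9.78e-05). The test of that turn gave -1.03 ± 0.13 for APC against DPP4_neg, male minus female (limma, adjusted p = 4.18e-07), and -1.04 ± 0.13 for FIP against DPP4_pos (limma, adjusted p = 7.69e-07). These calls held in every alternative run.

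Psat1 (chr19:15905123-15925059) encodes phosphoserine aminotransferase, a step of serine synthesis. Male FIP had 577, 573 and 654 normalized counts, against 2208, 1987 and 1961 in male APC. Female FIP had 350, 368 and 250, against 695, 797 and 636 in female APC. Male APC stood apart from every other group, with a mean of 2052 ± 136 (SD, n = 3) against 709 ± 81.3 in female APC, the next highest. Psat1 was lower in FIP than in APC at -1.77 ± 0.13 (limma, adjusted p = 2.45e-11) in males and -1.15 ± 0.13 (limma, adjusted p = 6.28e-08) in females. The difference between those, -0.62 ± 0.18 (limma, adjusted p = 0.0251), was lost without female APC replicate 3, female FIP replicate 1 or 2, male APC replicate 1 or male FIP replicate 1 or 2 (adjusted p = 0.0618 to 0.0873).

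In inguinal fat Psat1 had 371, 400 and 351 normalized counts in male DPP4_pos cells, against 620, 612 and 570 in male DPP4_neg cells. Female DPP4_pos cells had 270, 191 and 265, against 260, 219 and 230 in female DPP4_neg cells. It fell in male DPP4_pos cells (-0.68 ± 0.13; limma, adjusted p = 7.39e-05), the female groups overlapped (0.02 ± 0.13; limma, adjusted p = 0.902), and the sexes differed by -0.70 ± 0.18 (limma, adjusted p = 0.00421). Psat1 was higher in male than in female cells of all 4 populations without overlap, at 1.54 ± 0.13 in APC (limma, adjusted p = 4.14e-10), 0.91 in FIP (limma, adjusted p = 2.89e-06), 1.35 in DPP4_neg (limma, adjusted p = 2.34e-09) and 0.64 in DPP4_pos cells (limma, adjusted p = 0.000156). It was the sole one of the 9 tested genes that was called higher in males in every population, and these 4 calls held in every alternative. The predicted gene Gm12611 is 91.0% identical to Psat1 over 1056 bases, so reads of the 2 could be mixed.

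**Figure D2:**
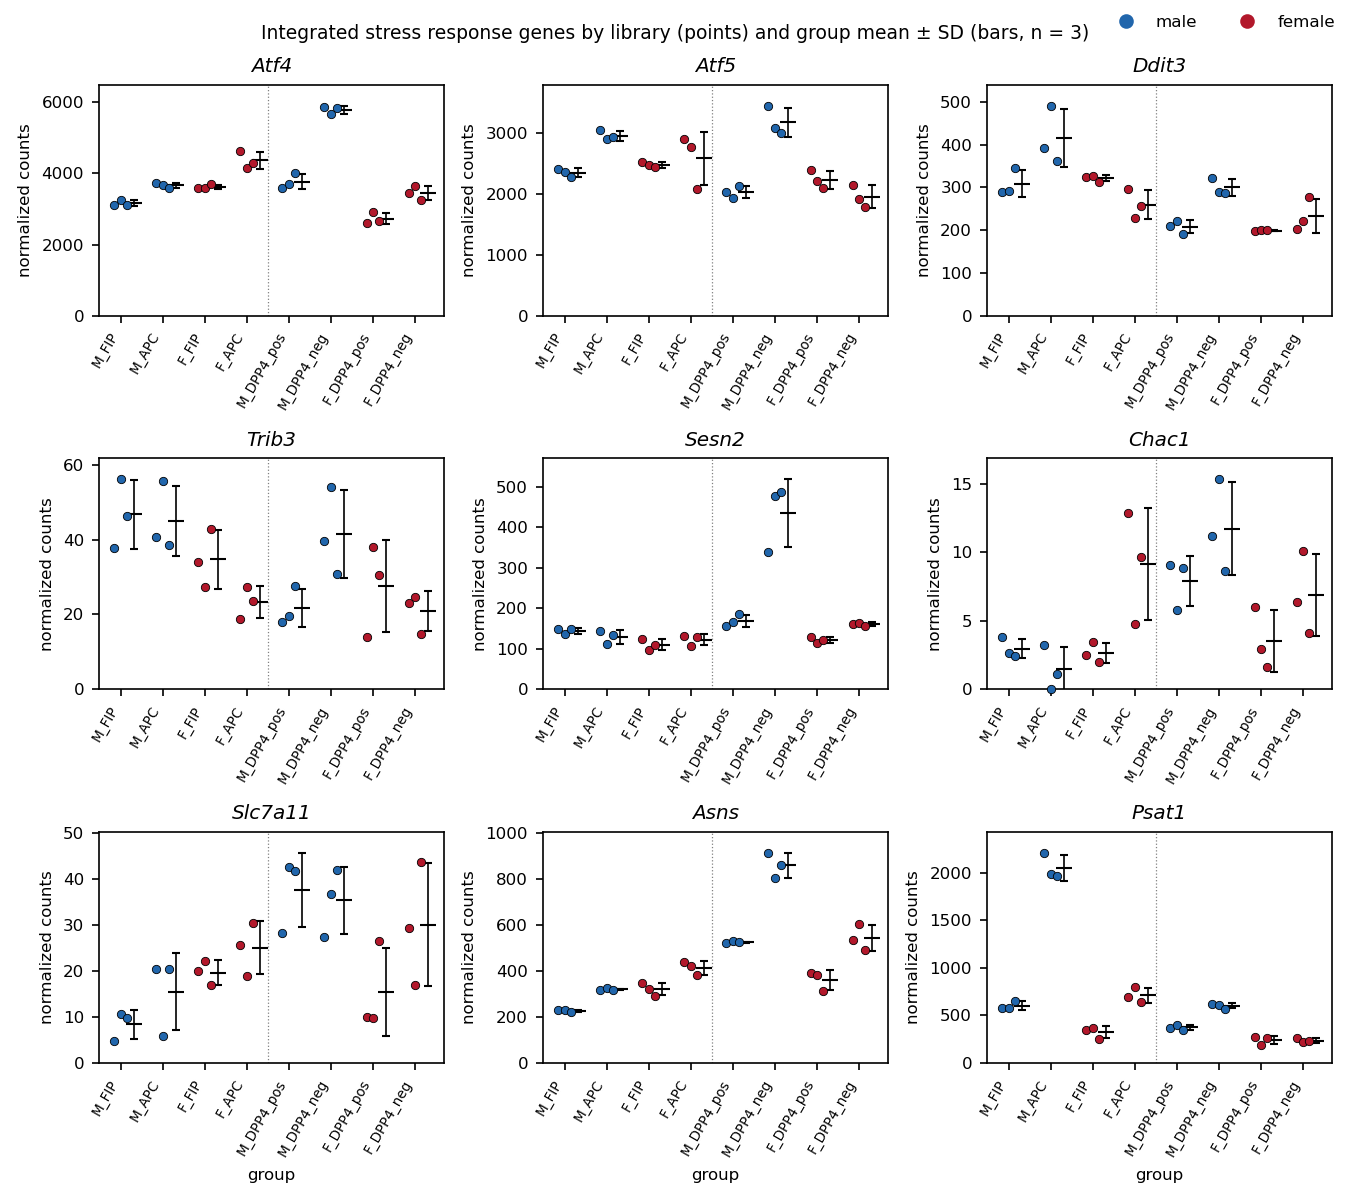
Normalized counts of the other 9 genes in each library (points), with the group mean and SD as bars (n = 3), each panel on its own linear axis from 0. Atf4, Sesn2 and Asns peak in male DPP4_neg cells, at means of 5801, 435 and 857, and Psat1 in male APC at 2052.

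Levels can be compared between genes only per length of transcript. In male DPP4_neg cells, where Gdf15 was highest, it had 462 normalized counts per kilobase. Atf4 had 3363 per kilobase there, Atf5 1746, Asns 428, Ddit3 337, Psat1 230, Sesn2 125, Trib3 20.49, Chac1 7.15 and Slc7a11 3.83. Gdf15 thus stood below Atf4 and Atf5 and next to Asns in those cells. In female DPP4_pos cells it had 6.396 per kilobase, below all but Chac1 at 2.15 and Slc7a11 at 1.67. Most of the other genes moved far less, with highest and lowest group means 1.63-fold apart for Atf5, 2.09-fold for Ddit3, 2.13-fold for Atf4, 3.78-fold for Asns and 8.69-fold for Psat1.

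Counted over the 9 tested genes, DPP4_pos cells of males had 7 lower than DPP4_neg cells and none higher, where 25.3% of all 14517 tested genes were called lower and 25.2% higher (50.5% in all). The exceptions were Chac1 and Slc7a11, which did not pass. In females 3 were lower, Atf4, Sesn2 and Asns, and none higher, against 27.1% of all genes called lower (49.7% in either direction). The number called in females ranged from 2 to 5 when a library was left out. With a replicate block it was 5, with Slc7a11 also lower and Atf5 higher (0.20), and under quantile normalization Trib3 was called higher (0.89). The median log2 fold change of the 9 genes was -0.64 in males and -0.34 in females, beside -0.04 for all tested genes in females and about 0 in males. The differences between the sexes were called for Atf4, Atf5, Trib3, Sesn2 and Psat1, each more negative in males, so 5 of 9 against 12.6% of all genes called in that direction and 29% in either. With only the 4 inguinal groups in the fit that count was 3. The epithelial, Dpp4 and macrophage values of the female DPP4_neg libraries given above move with these comparisons. The dissociation genes do so in males, with sums of 147310 to 157250 in male DPP4_pos cells against 222890 to 230120 in male DPP4_neg cells. In females their sums overlapped, at 172470 to 193200 in DPP4_pos against 155640 to 200960 in DPP4_neg cells, with 5 of 20 higher and 5 lower. Of the macrophage markers, 6 of 12 were lower in male DPP4_pos cells and 12 of 12 in female ones. Mural cell markers were lower in 5 of 6 in males and in 3 of 6 in females, where 1 was higher. Adipocyte markers were lower in 2 of 6 in males and 5 of 6 in females. Epithelial markers were lower in 0 of 9 in males, where 2 were higher, and in 9 of 9 in females. Mesothelial markers were lower in 1 of 8 in males and 4 of 8 in females. Their female sums were 419 to 636 in DPP4_pos against 6806 to 16492 in DPP4_neg cells. Of 7 endothelial markers, 1 was lower and 1 higher in males, and 6 lower and 1 higher in females. Female endothelial sums went the other way, at 1746.5 to 1830 in DPP4_pos against 652 to 910 in DPP4_neg cells. The part of these genes in the result was not tested.

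FIP against APC gave 5 of 9 lower and none higher in males, against 18% of all genes called lower and 36.9% in either direction. These were Atf4, Atf5, Ddit3, Asns and Psat1. In females 4 were lower, Atf4, Chac1, Asns and Psat1, and Ddit3 was higher, where 39.4% of all genes were called in either direction. The median of the 9 genes was -0.33 in males and -0.27 in females, beside -0.03 for all genes in males and about 0 in females. The difference between the sexes was called for 1 gene in the positive direction, Chac1, against 5.46% of all genes, and for 2 in the negative, Ddit3 and Psat1, against 5.33%. Female APC, where Chac1 was high, is among the 3 groups whose libraries admitted Chac1 to the test. Its calls in these counts thus rest in part on a group that admitted it. The female count of 5 was 3 to 4 when a library was left out and 3 under quantile normalization. Sums of the dissociation genes were 320870 to 350270 in male FIP against 442610 to 463360 in male APC, and 302400 to 316920 in female FIP against 493160 to 514870 in female APC. Markers of other cells moved the same way in females, where 6 of 6 adipocyte (median -2.42), 8 of 8 mesothelial, 6 of 6 mural, 6 of 7 endothelial and 11 of 12 macrophage markers were lower in FIP. In males 5 of 6 adipocyte (median -1.40), 3 of 6 mural and 2 of 12 macrophage markers were lower, and no mesothelial or endothelial marker was called. Adipocyte sums were 505 to 549 in male FIP against 1160 to 1591 in male APC, and 138 to 203 in female FIP against 1232 to 1466 in female APC. The part of these genes in the result was not tested.

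Male against female cells differed by fat. In DPP4_neg cells 7 of 9 genes were higher in males and none lower, against 27.1% of all genes called higher and 30.3% lower (57.4% in all), with Chac1 and Slc7a11 not called. In DPP4_pos cells 5 were higher, Atf4, Sesn2, Slc7a11, Asns and Psat1, and none lower, against 27.1% of all genes called higher and 25.5% lower. In APC 3 were higher (Ddit3, Trib3 and Psat1) and 3 lower (Atf4, Chac1 and Asns), with 44.4% of all genes called in either direction, 22.4% higher and 22.1% lower. The APC call of Chac1 rests in part on female APC, which is among the 3 groups whose libraries admitted it to the test. In FIP 2 were higher (Sesn2 and Psat1) and 3 lower (Atf4, Slc7a11 and Asns), with 37.2% of all genes called, 18.2% higher and 19% lower. The FIP count was 3 to 5 when a library was left out. The median difference of the 9 genes, male minus female, was 0.73 in DPP4_neg, 0.48 in DPP4_pos, 0.08 in APC and -0.07 in FIP cells, beside -0.03 for all genes in DPP4_neg, -0.02 in FIP and 0 in the others. Beside the DPP4_neg comparison stand the epithelial sums of 12.3 to 27.6 in male and 4235 to 10286 in female cells. The mesothelial sums were 37.0 to 78.1 in male and 6806 to 16492 in female cells. Both lists hold keratins, but they share no gene. Dpp4 was at 235 to 258 in male and 1150 to 4213 in female cells. In DPP4_pos cells the epithelial sums were 100 to 122 in male and 228 to 402 in female cells, and 6 of 6 adipocyte markers were higher in males (median 2.08). In FIP, 10 of 12 macrophage, 6 of 7 endothelial and 6 of 6 adipocyte markers were higher in males. In APC, 6 of 8 mesothelial and 4 of 9 epithelial markers were lower in males and 3 of 7 endothelial ones higher. The part of these genes in the results was not tested.

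**Figure D3:**
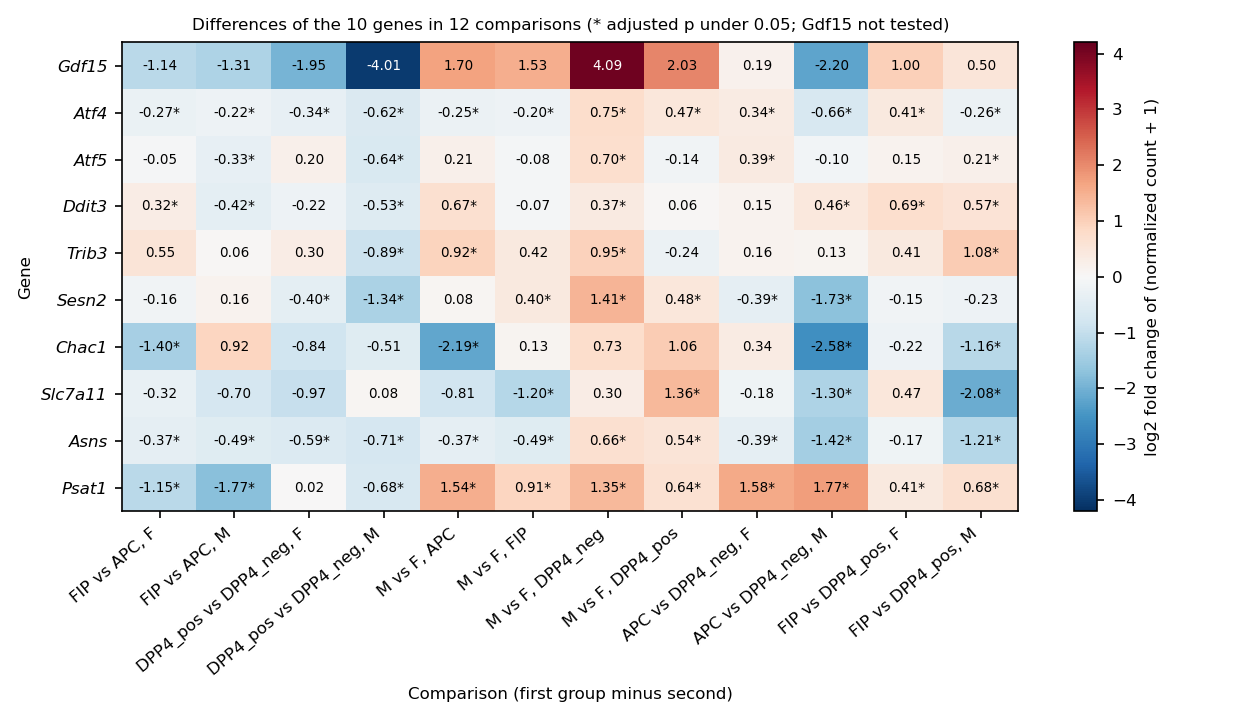
Log2 fold changes of the 10 genes (rows) in 12 comparisons (columns, first group minus second), with a star at an adjusted p under 0.05 by limma and no test for Gdf15. The 2 columns of male against female inguinal cells are red for nearly all genes, while in the 2 gonadal columns Atf4 and Asns are blue and Psat1 is red.

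Gonadal and inguinal cells differ in both fat and sort gate, which cannot be told apart. In males, APC against DPP4_neg cells had 2 of 9 genes higher, Ddit3 (0.46 ± 0.12; limma, adjusted p = 0.00158) and Psat1 (1.77 ± 0.13; limma, adjusted p = 7.31e-12), and 5 lower, where 66.1% of all genes were called, 33.1% higher and 33% lower. Lower were Atf4 (-0.66 ± 0.06), Sesn2 (-1.73 ± 0.13), Chac1 (-2.58 ± 0.48), Asns (-1.42 ± 0.09) and Slc7a11 (-1.30 ± 0.41; limma, adjusted p = 0.0081). Chac1 passed the filter only through libraries of male DPP4_neg, female APC and female DPP4_neg cells, so its calls here rest on the groups that admitted it. The Slc7a11 call was lost without male APC replicate 2 (-0.75, adjusted p = 0.107), and Atf5, not called at -0.10, was 0.32 under quantile normalization (adjusted p = 0.0014). In females 3 were higher, Atf4 (0.34 ± 0.06), Atf5 (0.39 ± 0.09) and Psat1 (1.58 ± 0.13), and 2 lower, Asns (-0.39 ± 0.09) and Sesn2 (-0.39 ± 0.13; limma, adjusted p = 0.0139), with 59% of all genes called, 26.8% higher and 32.2% lower. The Sesn2 call was lost without female APC replicate 2 (-0.29, adjusted p = 0.0924). The sexes differed in this comparison for 5 of 9 genes, all more negative in males, with 20.3% of all genes called in that direction and 42.9% in either, and the values were -1.0 for Atf4, -0.49 for Atf5, -1.33 for Sesn2, -2.92 for Chac1 and -1.03 for Asns. The Atf5 value was -0.15 under quantile normalization (adjusted p = 0.316). Among markers of other cells, 7 of 7 endothelial and 6 of 6 adipocyte markers were higher in APC than in DPP4_neg cells of both sexes. Mesothelial markers were higher in 7 of 8 in males, and in females 5 of 8 were higher and 3 lower. The mesothelial sums of females were 886 to 1134 in APC against 6806 to 16492 in DPP4_neg cells. Dissociation genes were higher in 13 of 20 and lower in 4 in males, and higher in 14 of 20 and lower in 6 in females. In females 9 of 9 epithelial and 8 of 12 macrophage markers were lower in APC, and 1 macrophage marker was higher. The part of these genes in the result was not tested.

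FIP against DPP4_pos cells had 4 genes higher in males, Atf5 (0.21), Ddit3 (0.57), Trib3 (1.08) and Psat1 (0.68), and 4 lower, Atf4 (-0.26), Chac1 (-1.16), Slc7a11 (-2.08) and Asns (-1.21), where 65% of all genes were called, 32.6% higher and 32.4% lower. In females Atf4 (0.41), Ddit3 (0.69) and Psat1 (0.41) were higher and none lower, with 22.1% of all genes called higher and 44.7% in either direction. Under quantile normalization Atf4 in males turned to 0.17 (adjusted p = 0.0118) and Trib3 lost its call (0.72, adjusted p = 0.0505). The male calls of Atf5 (adjusted p = 0.0579 to 0.149) and Chac1 (adjusted p = 0.0846 to 0.0997) were lost without several of the FIP and DPP4_pos libraries in turn, namely male FIP replicate 1, 2 or 3 and male DPP4_pos replicate 1 or 2 for Atf5, and male FIP replicate 2 or 3 and male DPP4_pos replicate 1 or 3 for Chac1. The female call of Psat1 was lost without female DPP4_pos replicate 2 or female FIP replicate 1 or 2 (0.25 to 0.34, adjusted p = 0.0612 to 0.118). The sexes differed for Atf4 (-0.67), Slc7a11 (-2.56) and Asns (-1.04), so 3 of 9 genes more negative in males, with 19.2% of all genes called in that direction and 34.9% in either. Higher in male FIP than in male DPP4_pos cells were 8 of 8 mesothelial, 7 of 7 endothelial and 7 of 12 macrophage markers and 15 of 20 dissociation genes. Lower there were 1 macrophage marker and 4 dissociation genes. In female FIP 4 of 8 mesothelial markers were higher and 3 lower, and 5 of 7 endothelial ones higher and 1 lower. Their sums were lower in female FIP than in female DPP4_pos cells, at 259 to 304 against 419 to 636 for mesothelial markers. Endothelial sums were 848 to 990 against 1746.5 to 1830. Of the dissociation genes 13 of 20 were higher and 4 lower in female FIP. Macrophage markers were lower in 9 of 12 and higher in 2 there, and epithelial ones lower in 7 of 9. The part of these genes in the result was not tested.

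Over the 24 libraries, Gdf15 followed Atf4 most closely among the other genes, with Pearson's r of 0.797 on the log2 scale. Next came Sesn2 at 0.785, Atf5 at 0.656, Psat1 at 0.578, Ddit3 at 0.519, Asns at 0.494, Trib3 at 0.408, Slc7a11 at 0.245 and Chac1 at 0.241. These values describe 8 groups of 3 libraries that share group, sex and fat, so they carry no p. Within groups, where each library's deviation from its group mean was taken, Gdf15 followed Ddit3 at 0.571 and Atf4 at only 0.0920. The 9 other genes did not move as 1 block. Asns, Chac1 and Slc7a11 correlated at 0.564 to 0.709 with one another, and Ddit3, Trib3 and Psat1 at 0.460 to 0.722. Values in or above that first range were also reached by genes with no match to the C/EBP-ATF core in the window searched. Sesn2 had 0.759 with Asns and 0.585 with Chac1, and Atf4 had 0.704 with Asns. Within groups the first 3 genes had 0.354 for Chac1 with Asns, 0.0288 for Chac1 with Slc7a11 and -0.579 for Slc7a11 with Asns. Between the 2 sets of 3 genes, which were picked after the values were seen, r lay between -0.478 and -0.186. Chac1 and Slc7a11 had few reads, which weighs on their values.

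**Figure D4:**
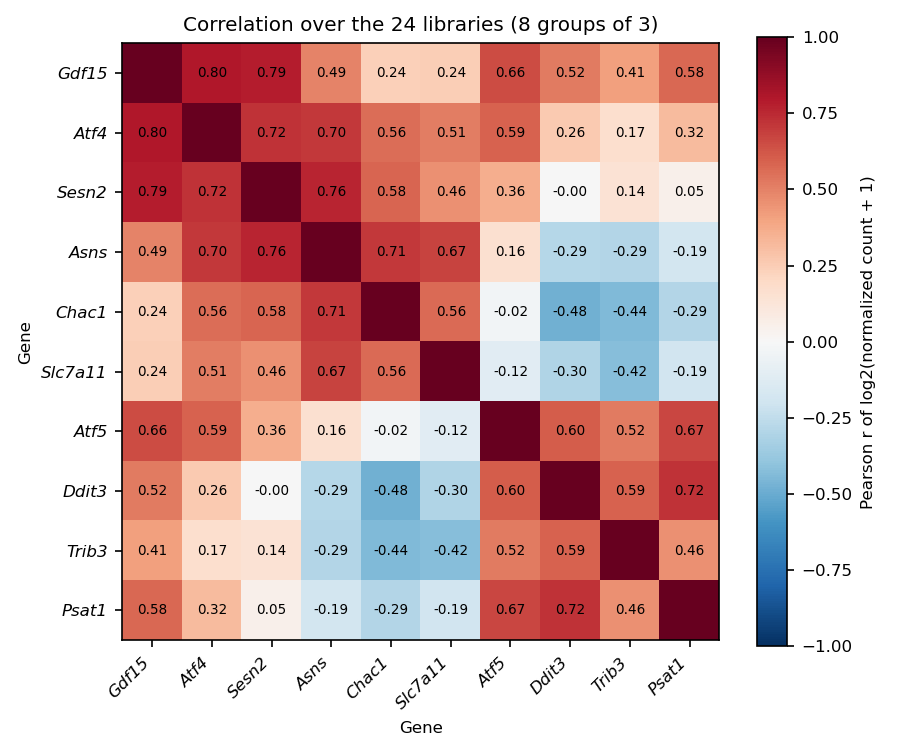
Pearson's r of log2(normalized count + 1) between the 10 genes over the 24 libraries, in colour from -1 (blue) to 1 (red) and in figures. Gdf15 is red with Atf4 (0.80) and Sesn2 (0.79), and the blue block lies between Asns, Chac1 and Slc7a11 on one side and Ddit3, Trib3 and Psat1 on the other.

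Among 8881 genes with a mean of at least 100, those most like Gdf15 over the 24 libraries were Usp35 (r = 0.959), Plpp1 (0.955), Zfand5 (0.951), Pcyt2 (0.945) and Ifi30 (0.941). Usp35 encodes a deubiquitinase, Plpp1 a phospholipid phosphatase, Zfand5 a zinc finger protein that binds the proteasome, Pcyt2 an enzyme of phosphatidylethanolamine synthesis and Ifi30 a lysosomal thiol reductase. Plpp1 had 2261, 2069 and 2094 normalized counts in male DPP4_neg cells, where Gdf15 was highest, and 260, 252 and 316 in female DPP4_pos cells, where it was lowest. Usp35 had 352, 377 and 407 in male DPP4_neg cells and 58.0, 72.2 and 69.4 in female DPP4_pos cells. Atf4 ranked 197th and Sesn2 216th in the same order. The most opposite genes were B3galnt1 (-0.961), a glycosyltransferase gene, Stxbp6 (-0.956), which encodes a binder of syntaxins, and Aldh7a1 (-0.954), an aldehyde dehydrogenase gene. Stxbp6 averaged 63.5 in male DPP4_neg cells and 835 in female DPP4_pos cells.

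The receptor side was measured by 3 genes. Gfral, the receptor gene, had no read in 21 libraries and 1 read in 3, which is at the limit of detection. Ret, which encodes the kinase that GFRAL signals through and which other ligands also use, was present. It had 782, 708 and 802 normalized counts in male APC, against 102, 47.6 and 60.8 in female APC, and 430, 636 and 673 in male FIP, against 39.9, 36.7 and 24.9 in female FIP. In inguinal fat Ret had 327, 441 and 403 in male DPP4_neg cells, against 42.9, 45.7 and 45.4 in female ones, and 89.3, 72.7 and 74.9 in male DPP4_pos cells, against 25.0, 17.6 and 24 in female ones. Ret was thus higher in males in all 4 populations, by 3.5 ± 0.21 in APC, 4.06 in FIP, 3.09 in DPP4_neg and 1.80 in DPP4_pos cells (limma, adjusted p = 1.6e-12, 1.33e-13, 9.03e-12 and 1.49e-07 in that order). Furin, the protease that can cut the GDF15 precursor, was higher in males at the deposited scaling, at 0.52 ± 0.08 in APC, 0.39 in FIP, 0.37 in DPP4_neg and 0.94 in DPP4_pos cells (limma, adjusted p = 0.000299 or less). Under quantile normalization the DPP4_neg value of Furin was 0.13 and did not pass (limma, adjusted p = 0.139), while the other 3 did.

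Lists of related genes set the 10 genes in their pathway. The female DPP4_neg libraries stand apart in epithelial markers and Dpp4, and their part in the male against female DPP4_neg values of these lists was not tested. The shares of all tested genes called in male against female cells, against which each list's count stands, were 27.1% higher and 30.3% lower in DPP4_neg, 27.1% higher and 25.5% lower in DPP4_pos, 22.4% higher and 22.1% lower in APC, and 18.2% higher and 19% lower in FIP cells. Of 19 tested targets of ATF4 and CHOP other than the 10, 11 were higher and 5 lower in male than in female DPP4_neg cells, and 12 were higher and 3 lower in DPP4_pos cells. The list's median was 0.30 in DPP4_neg and 0.45 in DPP4_pos cells. In the gonadal cells the same list was split, with 4 higher and 6 lower in APC and 5 higher and 6 lower in FIP, and its median in APC was -0.11, turning to 0.01 under quantile normalization. Cebpb, a C/EBP partner of ATF4, was higher in males in all 4 populations, by 1.005 ± 0.09 in DPP4_neg (limma, adjusted p = 8.49e-10), 1.19 in DPP4_pos, 0.81 in APC and 0.62 in FIP cells, with 13268, 10770 and 11656 normalized counts in male DPP4_neg cells against 5575, 5971 and 6188 in female ones. Sqstm1, an autophagy receptor gene, and Tnfrsf10b, a death receptor gene that CHOP switches on, were higher by 1.07 and 1.09 in male DPP4_neg cells and by 0.72 and 0.70 in male DPP4_pos cells, and Tnfrsf10b also by 0.54 in male FIP. Stc2, which encodes a secreted stanniocalcin, went the other way, with 10.1, 10.2 and 14.8 in male DPP4_neg cells against 164, 369 and 238 in female ones (-4.28 ± 0.25; limma, adjusted p = 3.71e-13). The epithelial sums of these female libraries were 4235, 10286 and 6024, in the same order, and their part in the Stc2 value was not tested. In DPP4_pos cells Stc2 had 30.5, 31.1 and 19.8 in males against 133, 226 and 169 in females. The epithelial sums of those female libraries were 228 to 402. Nupr1, a stress-response regulator, was higher in males in all 4 populations, by 0.72 in APC, 0.79 in FIP, 0.76 in DPP4_neg and 0.89 in DPP4_pos cells.

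Of 21 enzymes and transporters of amino acids, 9 were higher and 2 lower in male DPP4_neg cells, 9 higher and 4 lower in DPP4_pos cells, 9 higher and 6 lower in APC, and 5 higher and 5 lower in FIP, the last close to the share of all genes. The medians were 0.25 in DPP4_neg, 0.15 in DPP4_pos, 0.20 in APC and 0.09 in FIP cells. Mthfd2, an enzyme of mitochondrial one-carbon metabolism, had 464, 473 and 449 normalized counts in male DPP4_neg cells against 138, 173 and 130 in female ones (1.66 ± 0.15; limma, adjusted p = 1.28e-09). In APC it had 171, 189 and 184 in males against 55.4, 55.9 and 49.8 in females (1.74 ± 0.15; limma, adjusted p = 9.85e-10). As for Gdf15 and Psat1, Mthfd2 was higher in males in all 4 populations, with 1.37 in DPP4_pos cells and 0.66 in FIP. Slc3a2, the heavy chain that pairs with xCT, was higher in male DPP4_neg (1.13) and DPP4_pos cells (1.30). Slc6a9, a glycine transporter, had 360, 367 and 408 in male APC against 58.4, 55.9 and 53.9 in female APC (2.73 ± 0.14; limma, adjusted p = 5.82e-14) and was higher in males in FIP (1.85), DPP4_neg (1.13) and DPP4_pos cells (0.59) too. Gpt2, an alanine aminotransferase, was lower in male DPP4_neg cells, with 50.7, 75.6 and 76.4 against 261, 422 and 342 in female ones (-2.32 ± 0.15; limma, adjusted p = 3.54e-12), and higher in male DPP4_pos cells (0.75) and APC (0.45). The female DPP4_neg libraries rank in the same order by epithelial sum as by Gpt2, and the part of those markers was not tested.

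Among 20 aminoacyl-tRNA synthetases, 14 were higher and 4 lower in male DPP4_pos cells and 10 higher and 7 lower in male DPP4_neg cells, against 3 higher and 8 lower in APC and none higher and 7 lower in FIP. The medians were 0.42 in DPP4_pos, 0.16 in DPP4_neg, -0.12 in APC and -0.14 in FIP cells. Under quantile normalization DPP4_neg cells had 8 higher and 7 lower with a median of 0.045. DPP4_pos cells then had 12 higher and 4 lower with a median of 0.28. Aars, which charges alanine, had 2059, 2266 and 2242 normalized counts in male DPP4_neg cells against 1092, 1215 and 950.4 in female ones (1.02 ± 0.09; limma, adjusted p = 8.2e-10). Cars, which charges cysteine, was higher by 0.96 in the same cells and 0.93 in DPP4_pos cells. Iars, for isoleucine, was lower in male APC (-0.40 ± 0.11; limma, adjusted p = 0.00373) and FIP (-0.63) and higher in male DPP4_pos cells (0.44). Compared by fat in males, 16 of the 20 were lower in FIP than in DPP4_pos cells and 2 higher, where 32.4% of all genes were called lower.

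Upstream, of 14 genes for eIF2alpha kinases, phosphatase and exchange factor subunits, 3 were higher and 5 lower in male than in female DPP4_neg cells, 3 higher and 4 lower in DPP4_pos cells, 4 each way in APC, and 1 higher and 5 lower in FIP, counts near the shares of all genes in the inguinal cells. Eif2ak4, which encodes the amino acid sensor GCN2, was higher in male DPP4_neg (0.47 ± 0.11; limma, adjusted p = 0.000683), DPP4_pos (0.81) and APC cells (0.43). Eif2ak2, the double-stranded RNA sensor PKR, was lower in male APC (-0.69 ± 0.11; limma, adjusted p = 2.35e-05), FIP (-0.50) and DPP4_pos cells (-0.81). Eif2ak3, the sensor PERK of the endoplasmic reticulum, was lower in DPP4_pos than in DPP4_neg cells, by -0.36 in males and -0.37 in females.

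The unfolded protein response has other arms beside the eIF2alpha kinase PERK, led by ATF6 and XBP1. Of 22 chaperone and other targets of ATF6 and XBP1, 15 were lower and 2 higher in male than in female APC and 13 lower and none higher in FIP. The shares of all genes called lower were 22.1% in APC and 19% in FIP. The list's median was -0.46 in APC and -0.27 in FIP. In DPP4_neg cells 8 were lower and 4 higher (median -0.08), and in DPP4_pos cells 3 were lower and 4 higher. Under quantile normalization these were 12 lower and 3 higher in DPP4_neg cells (median -0.29) and 8 lower and 2 higher in DPP4_pos cells. Hyou1, a chaperone of the endoplasmic reticulum, had 1179, 1280 and 1170 normalized counts in male DPP4_neg cells, where Gdf15 was highest, against 2874, 2961 and 2203 in female ones (-1.14 ± 0.12; limma, adjusted p = 1.26e-08). In gonadal fat it had 1130, 1163 and 1267 in male APC against 2826, 2280 and 1750 in female APC (-0.92 ± 0.12; limma, adjusted p = 6.26e-07). Pdia4, a disulphide isomerase, was lower in males in all 4 populations, by -0.63 in APC, -0.68 in FIP, -0.85 in DPP4_neg and -0.25 in DPP4_pos cells. In FIP against APC, 11 were higher and 1 lower in males, where 18.9% of all genes were called higher, and 7 higher and 1 lower in females, where 21.3% were. Under quantile normalization these were 7 higher and 2 lower in males and 6 higher and 3 lower in females, with a female median of 0.0079. In DPP4_pos against DPP4_neg cells, 12 were higher and 1 lower in males, against 25.2% of all genes called higher, and 9 higher and 3 lower in females, against 22.6%, the female split turning to 3 higher and 5 lower under quantile normalization.

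Of 15 NRF2 targets, the genes of the oxidative stress response, 8 were higher and 1 lower in male DPP4_neg cells and 8 higher and 2 lower in DPP4_pos cells, with 4 each way in APC and 2 higher and 5 lower in FIP. The medians were 0.25 in DPP4_neg, 0.50 in DPP4_pos, 0.04 in APC and -0.14 in FIP cells, and under quantile normalization DPP4_neg cells had 7 higher and 3 lower with a median of 0.10. Hmox1, which encodes heme oxygenase, had 11084, 12859 and 13681 normalized counts in male DPP4_pos cells against 1883, 2295 and 2383 in female ones (2.52 ± 0.11; limma, adjusted p = 2.27e-15). In DPP4_neg cells it had 7299, 6764 and 7539 in males against 2163, 2382 and 2720 in females (1.58 ± 0.11; limma, adjusted p = 9.13e-12). It was lower in male than in female FIP (-0.49) and did not pass in APC (0.05). Txnrd1, a thioredoxin reductase, was higher by 0.97 in male DPP4_neg and 1.01 in male DPP4_pos cells. Between the inguinal populations, 10 were higher and 2 lower in DPP4_pos than in DPP4_neg cells of males, against 25.2% of all genes called higher. In females 7 were higher and 1 lower (median 0.22), against 22.6% called higher, and under quantile normalization 5 were higher and 2 lower with a median of 0.0015.

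The remaining lists were mixed. Of 8 mitochondrial stress proteins, 6 were lower and none higher in male than in female APC, 3 lower and none higher in FIP, 5 higher and none lower in DPP4_pos cells, and 3 higher and 1 lower in DPP4_neg cells, the last turning to 1 higher and 2 lower under quantile normalization. Hspd1, the mitochondrial chaperone HSP60, was lower in male APC (-0.64 ± 0.07; limma, adjusted p = 4.41e-08) and FIP (-0.42) and higher in male DPP4_neg (0.28) and DPP4_pos cells (0.51). Of 16 p53 targets, 5 were higher and 6 lower in male DPP4_neg cells, 7 higher and 8 lower in DPP4_pos cells, 3 higher and 5 lower in APC, and 6 higher and 4 lower in FIP. Of 20 genes that cell dissociation is known to raise, 13 were higher and 3 lower in male than in female DPP4_neg cells (10 higher and 7 lower under quantile normalization), 8 each way in DPP4_pos cells, 6 higher and 7 lower in APC, and 9 higher and 5 lower in FIP.

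**Figure D5:**
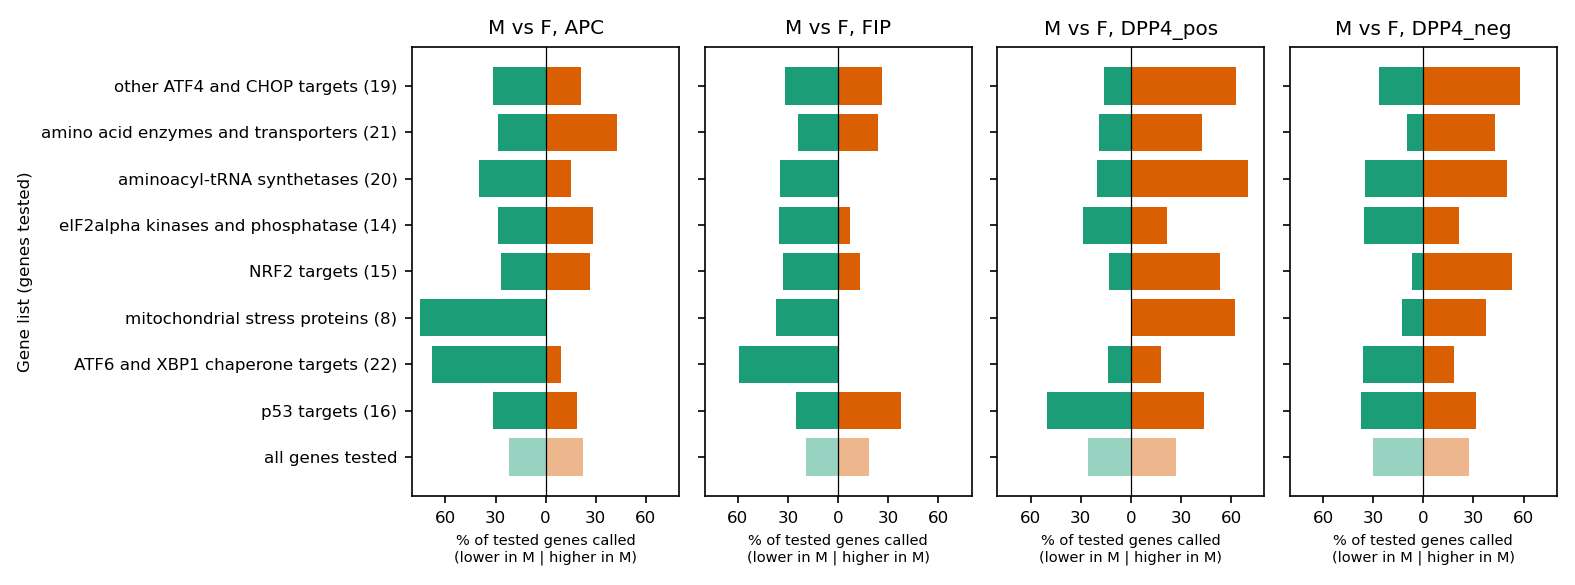
Share of each gene list called lower in males (left of 0) or higher in males (right of 0) by limma, in percent of the tested genes, in 4 panels for APC, FIP, DPP4_pos and DPP4_neg cells, with all 14517 tested genes as the pale bottom bar. The targets of ATF4 and CHOP and those of NRF2 lean right in the 2 inguinal panels. The chaperone targets of ATF6 and XBP1 lean left in the 2 gonadal panels and, less so, in the DPP4_neg panel (8 lower and 4 higher of 22). Under quantile normalization, which is not plotted, they lean left in DPP4_pos cells too.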

How the data were processed

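The deposited table gives a normalized signal for each gene in each library, which the authors obtained by dividing counts by a size factor. All values were whole multiples of 1 step per library within 0.01 read, so whole reads could be recovered. The submitters' processing notes name DESeq2 1.6.3, featureCounts 1.4.6, HISAT2 2.0.1 and Trim Galore 0.4.1, without roles, and GRCm38 or mm10. Annotation and strand setting: not given in the sources used here. Each library started from 0.5 ug of total RNA, per the labels. RefSeq coordinates matched 25275 identifiers (93.0%). Genes with no symbol held up to 0.0765% of the reads of a library.

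The scale was log2(value + 1), on which changes of low genes are understated. A mean for each of the 8 groups was fitted to all 24 libraries with limma 3.58.1 (R 4.3.3), with a trend of variance on mean. The 14517 genes at 10 or more in at least 3 libraries were tested, and a call is a Benjamini-Hochberg adjusted p under 0.05 over these genes. Of the 10 genes, all passed this filter and 9 were tested. Chac1 passed it through 4 libraries, of male DPP4_neg, female APC and female DPP4_neg cells. edgeR 4.0.16 and DESeq2 1.42.0 on recovered reads were alternatives, as were other pseudocounts, filters and scalings. Coordinates are GRCm38.

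The genes and lists were chosen with earlier results of these data known. Named besides the 10 were up to 4 called genes per list and pair of comparisons, ranked by the mean absolute log2 fold change, and the 5 most and 3 least correlated with Gdf15 (mean at least 100). Libraries within a group differed beyond sampling noise (chi-square per degree of freedom 1.61 to 26.3), so none was read as the same library sequenced again. Such a spread cannot tell separate animals from separate preparations of the same sample. The fit was tested on simulated data.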

Additional observations from a re-analysis of the deposited data

Results flagged for a closer look

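The differences listed here were picked out because the same comparison gave different values in males and females by limma's test of that difference, as male minus female log2 fold change. In FIP against APC these were Ddit3 (-0.74 ± 0.17 SE), Chac1 (2.32 ± 0.68) and Psat1 (-0.62 ± 0.18). In DPP4_pos against DPP4_neg cells they were Atf4 (-0.28 ± 0.09), Atf5 (-0.84 ± 0.13), Trib3 (-1.19 ± 0.42), Sesn2 (-0.94 ± 0.19) and Psat1 (-0.70 ± 0.18). In APC against DPP4_neg cells they were Atf4 (-1.0 ± 0.09), Atf5 (-0.49 ± 0.13), Sesn2 (-1.33 ± 0.19), Chac1 (-2.92 ± 0.68) and Asns (-1.03 ± 0.13). In FIP against DPP4_pos cells they were Atf4 (-0.67 ± 0.09), Slc7a11 (-2.56 ± 0.59) and Asns (-1.04 ± 0.13). Each group entering these differences holds 3 libraries, which is too few for a test of single outlying libraries. Chac1 passed the filter only through libraries of male DPP4_neg, female APC and female DPP4_neg cells, which enter its values here. The female DPP4_neg libraries, which stand apart in epithelial markers and Dpp4, enter the DPP4_pos against DPP4_neg and the APC against DPP4_neg values and not those of FIP against APC or FIP against DPP4_pos. Their part in the result was not tested.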

How the results depend on the processing

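Of 144 results of the 9 tested genes, 82 were called, and 58 of these kept their call under every alternative. Leaving out 1 library at a time, 63 kept it, 19 lost it at least once and 13 of the 62 uncalled results gained one. Quantile normalization moved most, with 10 calls lost and 8 gained, against 0 lost and 1 gained with TMM factors and 1 lost and 0 gained with edgeR. Under it Atf5 in APC against DPP4_neg cells of males turned to 0.32 and Atf4 in FIP against DPP4_pos cells of males to 0.17, and the genes called in FIP against APC of females numbered 3 in place of 5; the cause was not tested. The median of all genes shifted by more than 0.1 in APC against DPP4_neg cells of females (0.13), where 56.6% of calls were higher under it and 45.4% with the deposited scaling. The count for the difference between the sexes in DPP4_pos against DPP4_neg cells was 3 with only the groups compared in the fit, in place of 5.

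With a replicate block the genes called in DPP4_pos against DPP4_neg cells of females numbered 5 in place of 3, and 0 calls were lost and 3 gained in all. Same-numbered libraries of different groups correlated at -0.173 to 0.201 in their deviations from the group means, over 0.1 in 4 of 84 pairs, and 6 of 24 libraries correlated best with their own number, so the numbers were not read as a pairing.

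Without 1 library, the genes called ranged from 3 to 4 in FIP against APC of females (5 with all), 2 to 5 in DPP4_pos against DPP4_neg cells of females (3), 3 to 5 in male against female FIP (5), 3 to 5 for the sex difference of DPP4_pos against DPP4_neg (5) and 1 to 3 for that of FIP against APC (3). Depth limits Chac1, Slc7a11 and Trib3, at 0 to 63 reads a library, most.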
